A study of Mus musculus with 6 samples.

Results

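The genes described are Hoxb1 to Hoxb9, the HoxB cluster on mouse chromosome 11, in sorted blood stem and progenitor cells of Tet1 KO and WT mice. Members were all probe sets of the array whose annotation named exactly 1 gene and whose gene was in the list of 9 symbols. This gave 10 probe sets, of 45101 in the table, and they covered 8 of the 9 genes, with 2 each for Hoxb3 and Hoxb4. Hoxb8 had no probe set of its own, and 1 probe set annotated to both Hoxb8 and Hoxb7 is given apart. The study took LSK cells, marrow cells without mature lineage markers that carry Sca-1 and Kit, from mice 6 months old of strain CD57BL/6, as the labels spell it. There were 3 Tet1 KO samples and 3 WT samples, with 1 Affymetrix array each and no treatment. The sources used here do not give the Tet1 allele or the cells in which it was deleted, nor do they state that each sample came from its own mouse. All p-values therefore measure the spread between these samples, which may be technical.

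Hox genes encode transcription factors with a homeodomain that pattern the body axis, and they lie in clusters whose gene order follows the order of expression along that axis. In blood, HoxB genes of the Hoxb1 side of the cluster, above all Hoxb3, Hoxb4 and Hoxb5, are known from stem cells and early progenitors, and forced Hoxb4 expression is known to expand stem cells. Hox proteins bind DNA together with TALE homeodomain partners of the Pbx and Meis families. Tet1 oxidises 5-methylcytosine, which sits mostly at CpG dinucleotides.

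Upstream sequence is shown for Hoxb4, which had the brightest probe set of the cluster, and for Hoxb1, which had the dimmest and was near background on every array. Each is the 250 bases before the RefSeq start of the gene, 5′ to 3′ on the + strand of GRCm38.p6, with CpG dinucleotides, the sites at which Tet enzymes mostly act, in capitals.
Hoxb4, chr11:96318017-96318266: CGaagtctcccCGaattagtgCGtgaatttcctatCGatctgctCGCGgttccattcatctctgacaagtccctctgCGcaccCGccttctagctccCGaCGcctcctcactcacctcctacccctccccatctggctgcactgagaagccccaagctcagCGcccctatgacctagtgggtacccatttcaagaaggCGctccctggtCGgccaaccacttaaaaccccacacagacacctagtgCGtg
Hoxb1, chr11:96365508-96365757: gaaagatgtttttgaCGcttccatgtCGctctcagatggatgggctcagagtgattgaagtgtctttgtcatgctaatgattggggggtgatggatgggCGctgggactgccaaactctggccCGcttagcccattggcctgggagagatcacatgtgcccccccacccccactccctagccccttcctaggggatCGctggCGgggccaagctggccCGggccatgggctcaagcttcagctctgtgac
The Hoxb4 window held 14 CpG dinucleotides and the Hoxb1 window 7, against a median of 6 over 32851 windows of the same length before RefSeq starts. The share of those windows with fewer CpG dinucleotides was 70.6% for Hoxb4 and 53.7% for Hoxb1. Motifs were searched on both strands. The E-box, spelled CACGTG, occurred in 6.02% of all windows. The box CCAAT occurred in 33.9% of them. The letters TGATNNAT, a form of the joint site of Pbx and Hox proteins, occurred in 7.68% of them. The Hoxb4 window held none of them. The Hoxb1 window held TGATGGAT from -162 to -155 relative to the start and CCAAT on the opposite strand at 2 places. The known autoregulatory element of Hoxb1, through which its own protein acts with Pbx partners, contains sites of this TGATNNAT type. A match in letters is a description and does not by itself show binding. Whether the printed match belongs to that element was not tested here, and no methylation was measured.

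Values are log2 probe set intensities, so a difference of 1 is a doubling of signal, and intensities of different probe sets are not amounts of transcript that can be set against each other. As a guide to background, each array was given the reading of its brightest bacterial control probe set among 27, and a probe set at or under that reading is called near background. The Tet1 KO arrays had levels of 4.37, 4.87 and 4.21 for replicates 1 to 3, against WT levels of 4.36, 4.27 and 4.26. Tet1 KO replicate 2 stood apart, with 44.0% of all tested probe sets near background against 33.3% to 36.7% on the other arrays. Its quartiles lay closer together, at 3.79 and 6.97, than on the other arrays, whose lower quartiles ran from 3.61 to 3.69 and upper quartiles from 7.09 to 7.16. Dim probe sets thus read higher and bright ones lower on that array. The Tet1 gene itself had 4 probe sets, with no overlap between groups at any of them and differences, Tet1 KO minus WT, of -1.68 to -0.93. Over all probe sets, 6.29% were lower in Tet1 KO without overlap. The unadjusted limma p of the 4 ran from 0.00171 to 0.0103, and the adjusted p was 0.686 at each. Signal was reduced and not absent, with 3 of the 4 above background on all 6 arrays. LSK markers were present, with all 7 measured, including Kit and Cd34, above background on every array, while Ly6a, which encodes Sca-1, had no probe set named for it alone.

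**Figure D1:**
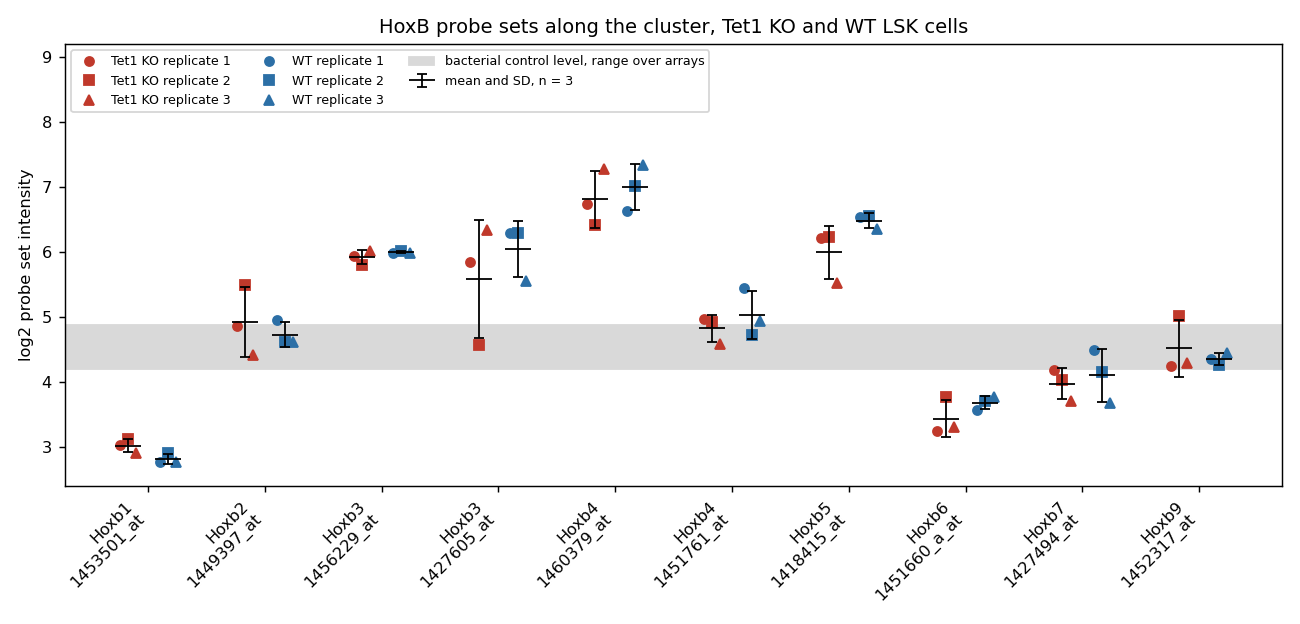
Log2 probe set intensity of the 10 HoxB probe sets, ordered from Hoxb1 to Hoxb9, on 3 Tet1 KO arrays (red) and 3 WT arrays (blue), with mean and SD in black. The grey band is the range of the bacterial control level over arrays, 4.21 to 4.87. Hoxb1 and Hoxb6 lie under the band, the second Hoxb4 probe set and Hoxb2 lie in or just above it, and the 2 groups are apart at Hoxb1 and Hoxb5.

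The cluster was read above background mainly from Hoxb2 to Hoxb5. Of the 10 probe sets, 5 were above background on all 6 arrays: Hoxb2, both Hoxb4 probe sets, Hoxb5 and the first Hoxb3 probe set. Over all 45037 tested probe sets, 23901 were above it on all 6, so the HoxB count does not stand out. The second Hoxb3 probe set fell under it on 1 array, Tet1 KO replicate 2. Hoxb1 and Hoxb6 were near background on all 6 arrays, Hoxb7 on 5 and Hoxb9 on 2. Of all tested probe sets, 12998 were near background on all 6. In bulk RNA, fewer cells that express a gene and less RNA per cell cannot be told apart.

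None of the 10 HoxB probe sets differed between Tet1 KO and WT after correction. The count past a limma Benjamini-Hochberg adjusted p of 0.05 was 0 of 10, where percent called over all 45037 tested probe sets was 0%, and the lowest adjusted p among the 10 was 0.686. At an unadjusted p under 0.05 the count was also 0 of 10, against 6.81% of all probe sets. The groups did not overlap for 2 of 10, against 16.2% of all, namely Hoxb5, where Tet1 KO was lower (6.29% of all probe sets), and Hoxb1, where Tet1 KO was higher (9.96% of all). Neither count stands out from the shares over all probe sets. Tet1 KO read lower than WT at 7 of 10 probe sets, those of Hoxb3 to Hoxb7, and higher at Hoxb1, Hoxb2 and Hoxb9, and over all probe sets 42.9% read lower. The median difference of the 10 was -0.16, beside 0.06 over all probe sets and 0.12 as the median over the 10 of what the 2000 probe sets nearest in level to each gave. Over the probe sets above the median level, the HoxB median was -0.32 beside -0.08 for all of them. Of the cluster, only the Hoxb3 probe sets, the brighter Hoxb4 probe set and Hoxb5 lay above that level. The dimmer of these Hoxb3 probe sets, at -0.46, gave 0.05 without Tet1 KO replicate 2. Over the probe sets above the bacterial control level the HoxB median was -0.19 beside -0.04. With the brightest probe set per gene it was -0.11 beside 0.05, and with probe sets averaged per gene -0.17 beside 0.05. Array by array, Tet1 KO replicates 1 to 3 gave median deviations from the WT mean of -0.09, -0.09 and -0.19 for the 10. WT replicates 1 to 3 gave 0.03, 0.02 and -0.07 by the same measure. WT replicate 3 had 7 of the 10 under the WT mean, as many as Tet1 KO replicate 1. Tet1 KO replicates 2 and 3 had 6 each, while WT replicates 1 and 2 had 4 and 3. Without WT replicate 1 the median difference was -0.04, and without Tet1 KO replicate 2 it was -0.09.

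**Figure D2:**
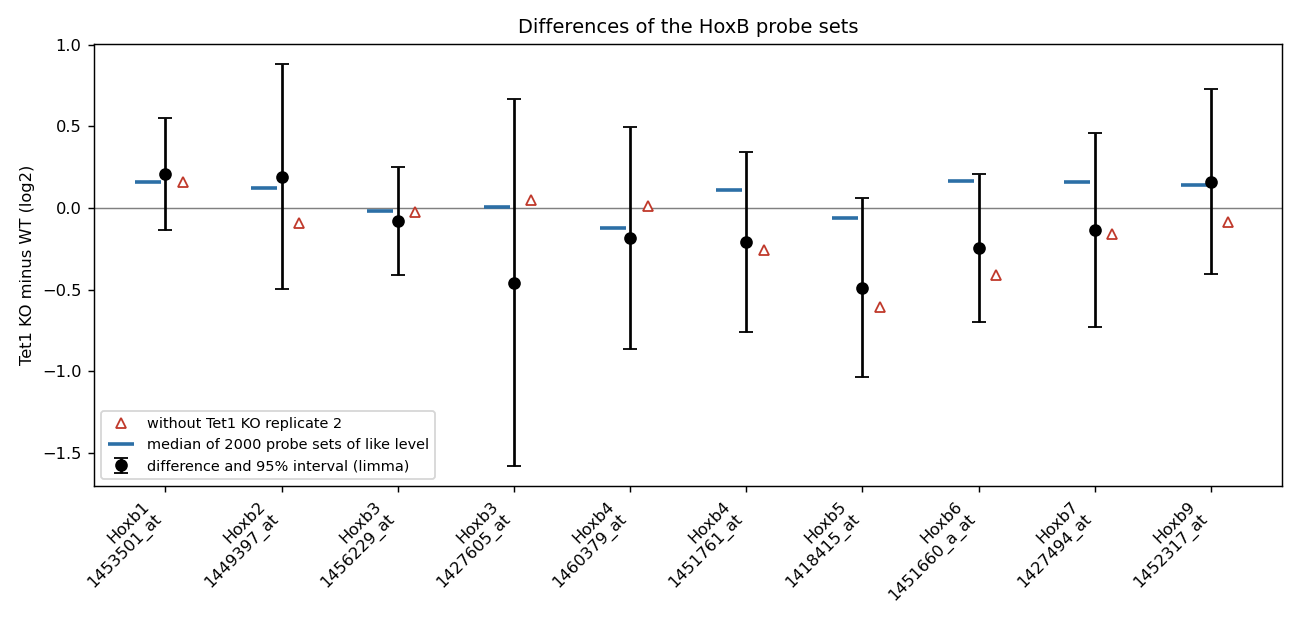
Tet1 KO minus WT difference (log2) of each HoxB probe set from Hoxb1 to Hoxb9, with the 95% interval of the limma fit over all probe sets (black), the difference without Tet1 KO replicate 2 (open triangles) and the median difference of the 2000 probe sets nearest in mean level (blue bars). Every interval includes 0, and Hoxb5 comes closest to leaving it, at -1.04 to 0.06.

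Hoxb5, which in mouse marrow is known to mark long-term stem cells, was lower in Tet1 KO cells without passing the test. It read 6.22, 6.23 and 5.53 in Tet1 KO cells, against 6.54, 6.56 and 6.35 in WT cells. The groups were apart, with all Tet1 KO readings under the WT readings, though the gap between the nearest pair was small and Tet1 KO replicate 3 was the lowest by far. The difference was -0.49 with a standard error of 0.23, or a fold of 0.71 with a 95% interval of 0.49 to 1.04. In limma the p was 0.073 before adjustment and 0.686 after it, and the exact permutation test gave p = 0.1, the smallest that 3 arrays against 3 allow. The 2000 probe sets nearest to it in level had a median difference of -0.06. Without Tet1 KO replicate 3 the difference was -0.25. After quantile normalization the groups overlapped, with a difference of -0.42.

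Hoxb4, the member best known for its effect on stem cell number, was read by 2 probe sets. The brighter, 1460379_at, read 6.74, 6.42 and 7.28 in Tet1 KO cells, against 6.64, 7.01 and 7.35 in WT cells. The groups overlapped over most of their range, and each group spread over more than the distance between their means. The difference was -0.19, with a 95% interval of -0.86 to 0.49, or a fold of 0.88 that could lie between 0.55 and 1.41. Without Tet1 KO replicate 2 it was 0.01. The dimmer probe set, 1451761_at, read 4.97, 4.93 and 4.58 in Tet1 KO cells, against 5.44, 4.73 and 4.94 in WT cells. Its difference was -0.21 (SE 0.23), and without WT replicate 1, the highest array, it was -0.01. Both probe sets thus allow changes of a size that these 6 arrays could not resolve.

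Hoxb3, which neighbours Hoxb4 and is expressed with it in stem cells, was also read by 2 probe sets, and these differed in spread. At 1456229_at the values were 5.94, 5.81 and 6.02 in Tet1 KO cells, against 5.99, 6.01 and 5.99 in WT cells. This was the steadiest reading of the cluster, with an SD of 0.11 in Tet1 KO and 0.01 in WT, and a difference of -0.08 (95% interval -0.41 to 0.25). At 1427605_at the values were 5.85, 4.58 and 6.34 in Tet1 KO cells, against 6.30, 6.30 and 5.55 in WT cells. Tet1 KO replicate 2 was the lowest of the 6 there, 1.47 below the WT mean, where probe sets of like level lay at a median of -0.02 on that array. The difference of -0.46 (SE 0.47) became 0.05 without that array. The RefSeq gene Hoxb3 spans Hoxb4 and the microRNA gene Mir10a, and which Hoxb3 transcripts each probe set reads was not resolved.

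Hoxb5os, a long non-coding RNA that overlaps Hoxb5 and Hoxb6 in RefSeq, is no member of the list but lies within the cluster. It read 6.87, 4.63 and 6.53 in Tet1 KO cells, against 6.60, 6.01 and 6.53 in WT cells. It was lowest on Tet1 KO replicate 2, as was 1427605_at of Hoxb3, while Hoxb5 itself was lowest on Tet1 KO replicate 3. That lowest Hoxb5os reading was near background, and the other Tet1 KO readings lay above the WT mean of 6.38. The Hoxb5os difference was -0.37 (SE 0.57), with an adjusted p in limma of 0.820. Which strand the labelled target represents was not resolved, so the reading cannot be assigned with certainty to Hoxb5os. Mir10a and Hoxb3os had no probe set named for them.

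**Figure D3:**
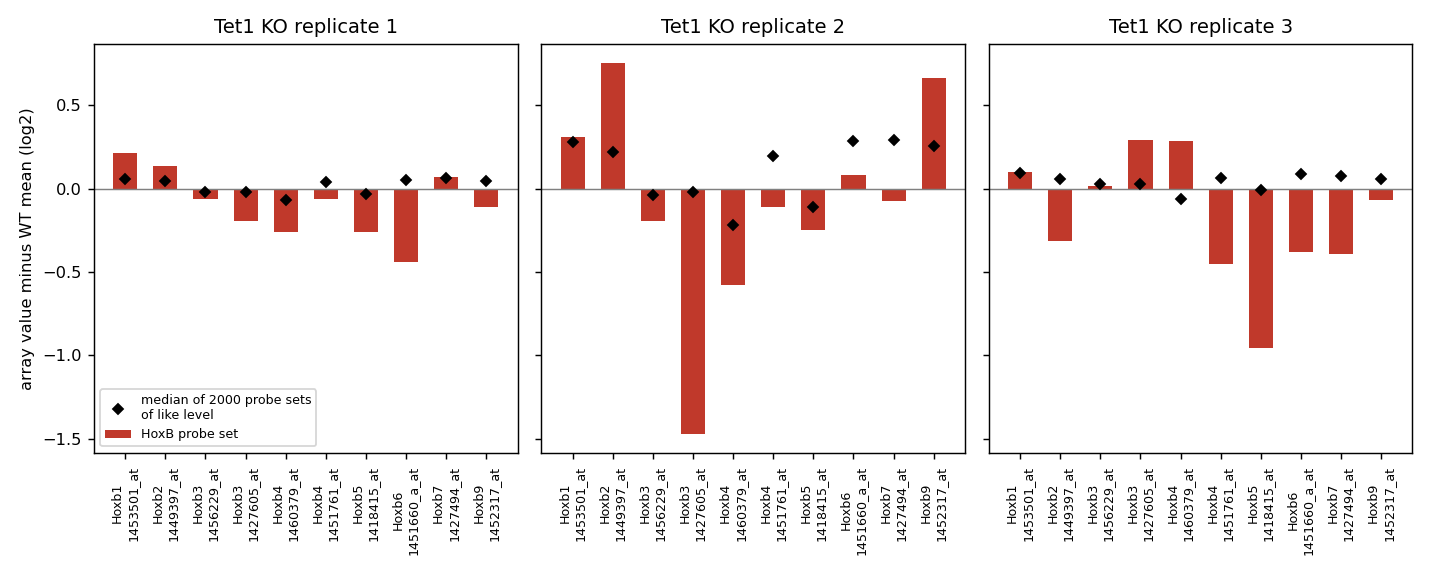
Value of each HoxB probe set on each Tet1 KO array minus the WT mean (bars, log2), beside the median of the same quantity over the 2000 probe sets nearest in mean level (diamonds). The deepest bar is 1427605_at of Hoxb3 on replicate 2, at -1.47, Hoxb2 and Hoxb9 stand highest on the same array, at 0.76 and 0.66, and Hoxb5 is at -0.95 on replicate 3.

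The remaining members were dim. Hoxb1, which sets the identity of a hindbrain segment in the embryo, read 3.04, 3.13 and 2.92 in Tet1 KO cells, against 2.77, 2.91 and 2.78 in WT cells. The groups did not overlap, with Tet1 KO higher, but the nearest pair of arrays, Tet1 KO replicate 3 and WT replicate 2, differed in the third decimal alone. All 6 readings were near background, and the difference of 0.21 (SE 0.14) stood beside a median of 0.16 for probe sets of like level. With cyclic loess, which removes trends with level, it was 0.06. Its upstream sequence is the second of those printed above.

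Hoxb2, which acts in the hindbrain with Hoxb1, read 4.87, 5.49 and 4.42 in Tet1 KO cells, against 4.96, 4.62 and 4.62 in WT cells. The highest and the lowest array were both Tet1 KO, so the groups overlapped. The difference of 0.19 (SE 0.29) was -0.09 without Tet1 KO replicate 2.

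Hoxb6, whose forced expression is known to expand blood progenitors, read 3.24, 3.77 and 3.31 in Tet1 KO cells, against 3.57, 3.72 and 3.77 in WT cells. The 2 lowest readings were Tet1 KO, but Tet1 KO replicate 2 read level with the highest WT array, and all 6 were near background. The difference was -0.24 (SE 0.19), where probe sets of like level had a median of 0.16. Without Tet1 KO replicate 2 it was -0.41, with an unadjusted limma p of 0.028 and an adjusted p of 0.620.

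Hoxb7, known from the ureteric bud of the kidney, read 4.18, 4.03 and 3.72 in Tet1 KO cells, against 4.49, 4.16 and 3.68 in WT cells. The groups overlapped over most of their range. The difference was -0.13 (SE 0.25), and without WT replicate 1, the array that read above background, it was 0.06.

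Hoxb9, which acts in the patterning of the thoracic skeleton, read 4.25, 5.02 and 4.29 in Tet1 KO cells, against 4.36, 4.27 and 4.45 in WT cells. Tet1 KO replicate 2 alone stood above the rest. The difference of 0.16 (SE 0.24) was -0.09 without it.

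Hoxb8, whose forced expression is used to hold myeloid progenitors in an undifferentiated state, could not be read by itself. The probe set shared with Hoxb7 read 2.46, 2.62 and 2.81 in Tet1 KO cells, against 2.74, 3.10 and 2.73 in WT cells. All 6 readings were near background and the groups overlapped, with a difference of -0.23 (SE 0.18).

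The lowest of the 6 readings fell on a Tet1 KO array for 8 of the 10 probe sets and on a WT array for 2, where over all probe sets the shares were 54.7% and 45.3%. By array, the Tet1 KO replicates 1 to 3 gave the lowest reading for 2, 3 and 3 of them, against 1, 0 and 1 for the WT replicates. Tet1 KO replicate 2 alone gave the highest reading for 3, Hoxb1, Hoxb2 and Hoxb9, was level with WT replicate 3 as the highest at Hoxb6, and gave the lowest for 3, both Hoxb3 probe sets and the brighter Hoxb4 probe set. Over all probe sets it gave the highest reading in 35.9% and the lowest in 24.6%. These 4 high readings were of dim probe sets, and 3 of them stood at or above the median of their level on that array, which ran from 0.22 to 0.28 above the WT mean for the 4. Its part in the differences was measured by leaving it out, which turned the direction at Hoxb2, Hoxb9, 1427605_at of Hoxb3 and 1460379_at of Hoxb4.

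The genes on both sides of the cluster were read in the same way. Of 15 probe sets of the 8 nearest protein-coding genes, 8 read higher and 7 lower in Tet1 KO, with a median difference of 0.05, and 0 passed the adjusted limma test or an unadjusted p under 0.05. Atp5g1, which encodes a subunit of the ATP synthase, read 9.39 ± 0.31 in Tet1 KO cells and 9.87 ± 0.21 in WT cells (SD, n = 3 each) at its brighter probe set. Cbx1, which encodes a heterochromatin protein, read 9.95 ± 0.15 in Tet1 KO cells and 9.97 ± 0.07 in WT cells (SD, n = 3 each) at its brightest. These groups overlapped, with differences of -0.47 (SE 0.21) for Atp5g1 and -0.02 (SE 0.15) for Cbx1. Hoxb13, the outlying gene of the cluster beyond Hoxb9, read 5.03 ± 0.37 in Tet1 KO cells and 4.70 ± 0.06 in WT cells (SD, n = 3 each), a difference of 0.33 (SE 0.21).

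**Figure D4:**
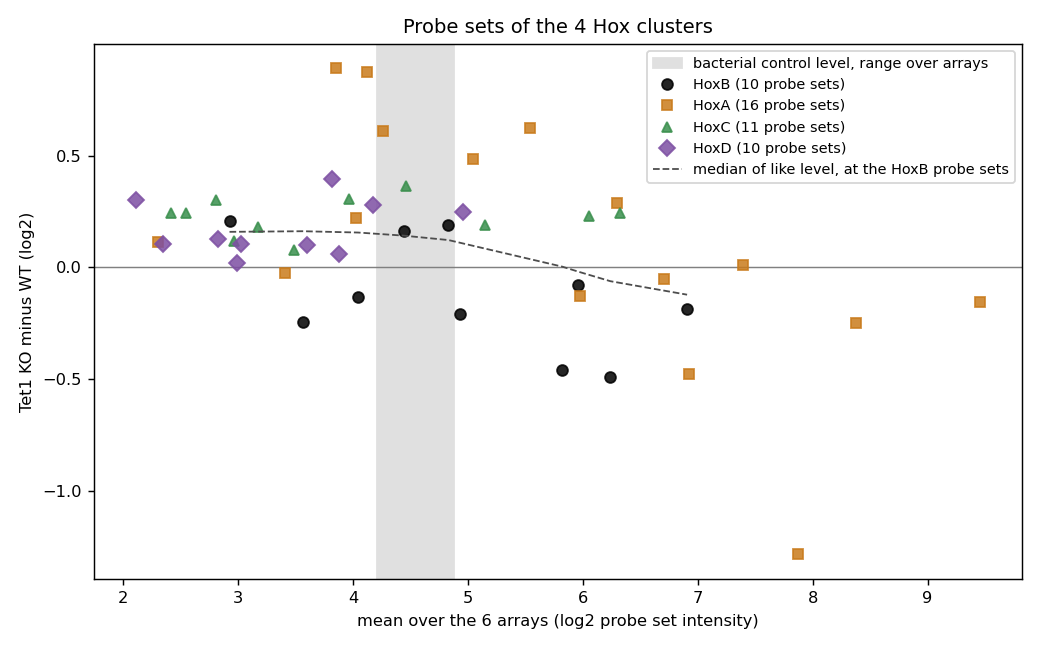
Tet1 KO minus WT difference (log2) against mean log2 intensity over the 6 arrays for the probe sets of the 4 Hox clusters, with the median of probe sets of like level as a dashed line and the bacterial control level as a grey band. HoxC and HoxD probe sets all lie above 0 and mostly under the band, while 7 of the 10 HoxB probe sets lie below 0.

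The other Hox clusters were counted by the same rule. HoxA probe sets were higher in Tet1 KO at 9 of 16 and lower at 7, with a median of 0.06. HoxC was higher at 11 of 11, with a median of 0.24, and HoxD at 10 of 10, with a median of 0.12. Of these, 7 HoxC and 8 HoxD probe sets were near background on all 6 arrays, and probe sets of their level had a median difference of 0.16 for both. None of the 37 probe sets passed the adjusted limma test or an unadjusted p under 0.05. The paralogue Hoxa9, which drives stem cell self-renewal in leukaemia, read 9.38 ± 0.42 in Tet1 KO cells and 9.54 ± 0.19 in WT cells (SD, n = 3 each) at its brighter probe set. Hoxa3 read 7.74, 4.56 and 9.41 in Tet1 KO cells, against 8.91, 8.35 and 8.30 in WT cells at its brightest probe set. Its lowest reading there, on Tet1 KO replicate 2, was near background. The difference at that probe set was -1.28 (SE 1.12). The other Hoxa3 probe sets were not lowest on that array and gave -0.13, 0.62 and 0.48.

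Among the TALE partners, 13 of 23 probe sets read higher in Tet1 KO and 10 lower, with a median difference of 0.08. None passed the adjusted limma test, and 1 passed an unadjusted p under 0.05, a probe set of Meis1. Meis1, the partner best known from blood stem cells, had 3 probe sets, which disagreed. At 1459423_at it read 9.55, 9.10 and 9.30 in Tet1 KO cells, against 8.55, 8.24 and 7.86 in WT cells, with every Tet1 KO array higher. That difference was 1.10 (SE 0.23), with an unadjusted p in limma of 0.00213 and an adjusted p of 0.686. The other two probe sets gave 0.08 (SE 0.15) at 1450992_a_at and -0.52 (SE 0.30) at 1443260_at. Pbx2 differed by 0.14 (SE 0.20) at its brightest probe set.

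Genes that regulate Hox transcription included the histone methyltransferase Kmt2a with its partners Men1, Psip1, Wdr5, Ash2l and Rbbp5, the H3K79 methyltransferase Dot1l, the Cdx factors, Rara, and Usf1, Usf2 and Nfya. Of their 28 probe sets, 17 read higher in Tet1 KO and 11 lower, with a median of 0.05, and 0 passed the adjusted limma test or an unadjusted p under 0.05. The brightest was Nfya, part of the factor that binds CCAAT boxes, at 10.2 ± 0.25 in Tet1 KO cells and 10.2 ± 0.04 in WT cells (SD, n = 3 each). Psip1, which tethers the Kmt2a complex to chromatin, read 8.91 ± 0.24 in Tet1 KO cells and 8.87 ± 0.12 in WT cells (SD, n = 3 each).

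Marker genes of cell types outside the LSK gate were read as well. Of 6 stroma markers, Pdgfra was near background on all 6 arrays, while Pdgfrb and Cxcl12 were above it on all 6, and the summed linear signal of the 6 ran from 313 to 405 in Tet1 KO and from 235 to 652 in WT. Of 4 endothelial markers, Cdh5 was near background on all arrays, while Pecam1 and Tek were above it on all, and the sums ran from 206 to 380 in Tet1 KO and from 265 to 290 in WT. Of 7 mature blood markers, Cd3e and Ms4a1 were near background on all arrays, while Cd79b, Elane and Cpa3, of B cells, granulocyte precursors and mast cells, were above it on all, and the sums ran from 371 to 638 in Tet1 KO and from 367 to 594 in WT. The sums overlapped between groups for each list, but a sum mostly follows its brightest markers. By single marker, the groups did not overlap, with Tet1 KO higher, at Col1a1 of stroma (0.32) and at Kdr (0.42) and Cdh5 (0.24) of endothelium. Each of these was near background on at least 1 array, and 9.96% of all probe sets were higher without overlap. The other markers of these lists overlapped. The part of such cells in the HoxB readings was not tested. Whether the signal above background came from such cells or from LSK cells themselves was not tested either.

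The genes whose pattern over the 6 arrays was most like that of 1460379_at of Hoxb4 were Brk1, Baz1a, Anp32a, Aldh18a1 and Ndufb8. Their Pearson correlations lay between 0.988 and 0.993 over 6 arrays, among 23929 probe sets above the bacterial control level. Of those, 240, or 1%, had a correlation over 0.9. The named genes were picked as the highest of many, on 6 arrays that also share labelling and normalization, so the likeness is a description only.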

How the data were processed

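Total RNA of 3 Tet1 KO and 3 WT samples was labelled from 125 ng each and hybridized to 1 array per sample, per the labels' protocols. The deposited table held log2 intensities, a scale read from the values (1.50 to 14.6), and the authors' background correction, normalization and summarization are not stated in the sources used here. The labels name whole-transcript labelling kits, while the probe sets are those of a 3′ array. Array medians lay within 0.0694 of each other and values were used as deposited. Samples were grouped by their titles.

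All 45037 probe sets other than 64 controls were fitted in limma 3.58.1 (R 4.3.3; lmFit, eBayes), genotype as the only term, two-sided, with Benjamini-Hochberg adjustment over all of them and a threshold of 0.05. In a separate simulation with planted changes, limma called most of these but not all, and some of its calls were false. That simulation does not show whether differences as small as those of HoxB would be called on these arrays. Taking 1 probe set per gene was an alternative, and the arrays' number limits precision. Of the annotated probe sets, 34945 had 1 symbol and 932 several. All 10 HoxB probe sets matched RefSeq (GRCm38.p6) by gene identifier. Members, gene lists, the level-matched medians and the rule for named genes (every HoxB probe set, the 2 brightest genes of each list, Tet1, Meis1 and the 5 genes most like the brightest HoxB probe set) were chosen with earlier results of these data known. Kit, Cd34, Hoxb5os, the markers of other cells near or above background on all arrays and the disagreeing Meis1 probe sets were named besides. Figures were drawn with matplotlib 3.10.9.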

Additional observations from a re-analysis of the deposited data

How the results depend on the processing

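Each HoxB result was recomputed under up to 17 alternatives. No HoxB probe set passed the adjusted limma threshold in any of them. Of 151 recomputed differences, 146 kept their direction and 5 turned, all with 1 array left out. The count of 146 includes settings that could not turn a difference, since they change only the error model or the probe sets tested. These are the intensity trend, with or without robust estimation, the replicate block, the brightest probe set per gene and the 2 filters by level. Averaging the probe sets of a gene could not turn one either, since it was counted for Hoxb3 and Hoxb4 alone, whose probe sets all read lower. Shifting each array to the same median moved every difference by less than the smallest HoxB difference. Over the fits that left out 1 array, Hoxb2 ran from -0.091 to 0.44, 1427605_at of Hoxb3 from -0.83 to 0.048, 1460379_at of Hoxb4 from -0.42 to 0.011 and Hoxb9 from -0.089 to 0.30, each turning without Tet1 KO replicate 2. Hoxb7 ran from -0.35 to 0.058 and turned without WT replicate 1. The HoxB median ran from -0.15 to -0.045 over those fits. It was -0.32 over the probe sets above the median level, a setting that tests fewer of them and in which the median of all was -0.082. The count of HoxB probe sets at an unadjusted p under 0.05 was 1 with cyclic loess (Hoxb6), 1 with array weights (Hoxb5) and 2 without Tet1 KO replicate 2 (Hoxb5 and Hoxb6). The groups overlapped for all HoxB probe sets after quantile normalization. Over all probe sets, 1 passed the adjusted threshold with an intensity trend, and 1 with the trend and robust estimation, in both the unnamed 1450192_at, and 0 in the other fits. The count over all probe sets at an unadjusted p under 0.05 was 3065, and 1380 above the median level, 1713 above the bacterial control level, 1311 with the brightest probe set per gene, 1446 with probe sets averaged per gene, and 1558 to 4627 with 1 array left out (lowest without WT replicate 1, highest without Tet1 KO replicate 1). Same-numbered Tet1 KO and WT arrays deviated from their group means with correlations of 0.01, -0.01 and 0.0005, against -0.03 to 0.02 for arrays of different number. With 3 arrays per group, such values cannot decide whether the numbers pair the samples, and the labels do not say. With the replicate number as a block the HoxB count past the adjusted threshold was 0, the median -0.16 and the count over all probe sets 0 (2396 at an unadjusted p under 0.05). The precision was limited by 3 arrays per group and the cause of the changes above was not tested.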
